A study of Arabidopsis thaliana with 15 samples.

Results

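Receptor-like protein (RLP) genes of Arabidopsis thaliana encode cell-surface receptors with a leucine-rich-repeat ectodomain and a membrane anchor but no kinase domain. The genes described here are the 52 nuclear protein-coding genes, of 27444 in the RefSeq gene table for TAIR10.1, whose symbol is RLP followed by a number. The rule uses the symbol and no measured value. The values come from ChIP-seq of whole 8-day-old Col-0 seedlings, done on native chromatin that was digested with micrococcal nuclease and never crosslinked. Total histone H3, H3K4me2, H3K4me3, H3K36me3 and input chromatin were each sequenced in 3 genotypes (wild type, the fpa-7 single mutant and a bdrs triple mutant, whose alleles the labels do not name), with 1 library per assay and genotype and 15 in all. The files hold 1 list of peaks per methylation mark, for which libraries were pooled and total H3, pooled too, served as the control. Which genotypes were pooled is not stated, so nothing below separates the mutants from wild type. Replicate error and read depth are unknown for every peak.

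RLPs cannot signal alone. Many of those that detect fragments of microbes bind the adaptor kinase SOBIR1 constitutively and recruit the co-receptor BAK1 when a ligand arrives. Other RLPs act in growth and patterning. In plants H3K4me3 lies at the start of transcribed genes, H3K36me3 along their bodies, and H3K4me2 on active and on weakly transcribed genes alike. Many RLP genes stand in tandem arrays of related copies. Related copies can share sequence reads, and the sources used here do not say how the authors placed such reads, so the absence of a listed peak on a member of an array is uncertain.

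The RLP genes carried H3K36me3 less often than other genes. With the full lists, their shares with H3K4me2 and H3K4me3 were close to those of all genes. With fewer peaks both fell below all genes, H3K4me3 by more than H3K4me2. A gene is said to carry a mark where peaks of the deposited list covered 200 bp or more of its body. H3K36me3 was on 14 of the 52 genes (26.9%), against 49.8% of all nuclear protein-coding genes. H3K4me3 was on 30 (57.7%), against 62.5% of all genes, and H3K4me2 on 38 (73.1%), against 74.8%. The RLP genes were longer than most (median length 2808 bp, all genes 2078 bp), and longer genes carried marks more often. Among the 13789 genes between 1831 and 4512 bp, which are the 10th and 90th percentiles of RLP gene length, 86.6% carried H3K4me2, 76.5% H3K4me3 and 64.2% H3K36me3, so that all 3 shares of the RLP genes were below those of genes of like length. With the strongest 50% of each list, H3K4me3 also fell behind, at 11.5% of RLP genes against 33.2% of all genes, beside 7.69% against 25.6% for H3K36me3. With equal numbers of peaks per list, H3K4me3 was on 14 RLP genes (26.9%) against 49.5% of all genes, and H3K36me3 on 14 (26.9%) against 49.8%, so that the deficit was alike for both trimethyl marks. H3K4me2 fell behind by less, at 32.7% against 40.6% with the strongest 50% and 38.5% against 46.9% with equal numbers. No test was made of these differences, since members of an array are not independent and the lists hold no replicates.

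**Figure D1:**
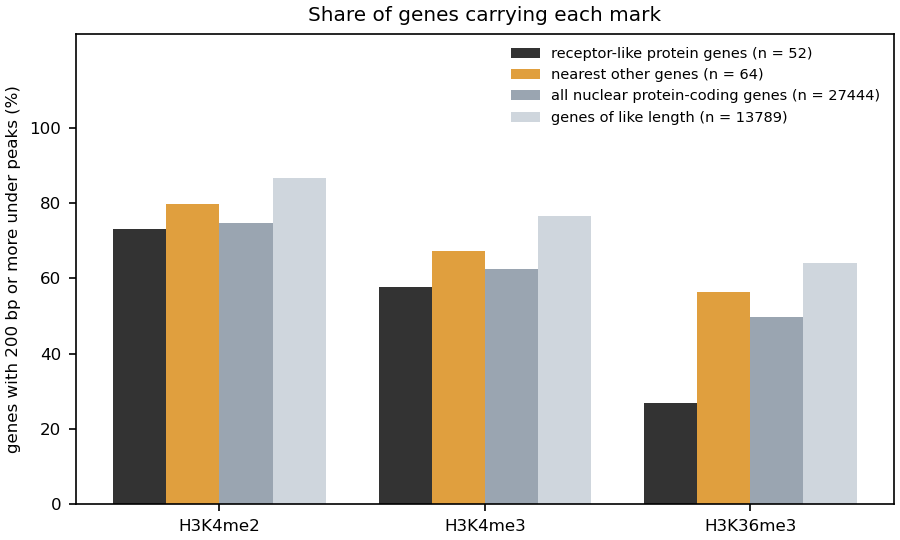
Percentage of genes with 200 bp or more of the gene body under peaks of each mark, for the RLP genes, their nearest other protein-coding genes, all nuclear protein-coding genes and genes of like length. The bars of the RLP genes stand lowest for H3K36me3, at 26.9% against 49.8% of all genes, and close to all genes for H3K4me2 and H3K4me3.

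With the full lists, many RLP genes carried H3K4me3 without H3K36me3. Of the 30 RLP genes with H3K4me3, 12 carried H3K36me3 (40%), while 78.6% of all genes with H3K4me3 and 83.1% of those of like length did. The commonest state was H3K4me2 with H3K4me3 and no H3K36me3, on 15 RLP genes, a state of 12.9% of all genes and 12.7% of genes of like length. H3K4me2 alone was on 12 RLP genes (23.1%), against 15.2% of all genes and 12.5% of genes of like length. All 3 marks were on 11 (21.2%), against 46.5% and 61.2%. No mark was on 8 (15.4%), against 21.7% and 10.4%. The remaining 6 genes were in rare states: H3K4me3 alone on RLP27, RLP42 and RLP50 (0.517% of all genes), H3K36me3 alone on RLP3 and RLP40 (0.419%), and H3K4me3 with H3K36me3 on RLP54 (2.63%). No member was close to the 200 bp limit, as the smallest cover inside it was 507 bp (H3K4me3 on RLP9) and the only smaller cover above 0 was 1 bp (H3K4me2 on RLP27).

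Some of these peaks had their summit outside the RLP gene. When the summit of a peak had to lie inside the gene, 33 RLP genes (63.5%) had H3K4me2, against 73.0% of all genes. H3K4me3 was on 28 (53.8%) against 61.0%, and H3K36me3 on 11 (21.2%) against 48.2%. A summit inside the gene is called its own here. The 11 with their own H3K36me3 summit were RLP1, RLP4, RLP13, RLP14, RLP31, RLP33, RLP44, RLP45, RLP51, RLP54 and RLP57. Each of them also held an H3K4me3 summit. Both summits in RLP45 also lie in AT3G53235, a gene annotated inside it, and are not particular to RLP45. The other 3 genes with H3K36me3 were RLP30, RLP3 and RLP40, of which the peak of RLP3 touched no other protein-coding gene. RLP30 lies wholly inside the annotated span of AT3G05350, and its H3K36me3 peak, on chromosome 3 from 1528566 to 1533896 (TAIR10), lay entirely on that gene with its summit outside RLP30. The peak of RLP40, on chromosome 3 from 9103874 to 9106747, covered 2767 bp of AT3G24929 and 748 bp of RLP40. Under the summit rule no RLP gene had H3K36me3 without H3K4me3.

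**Figure D2:**
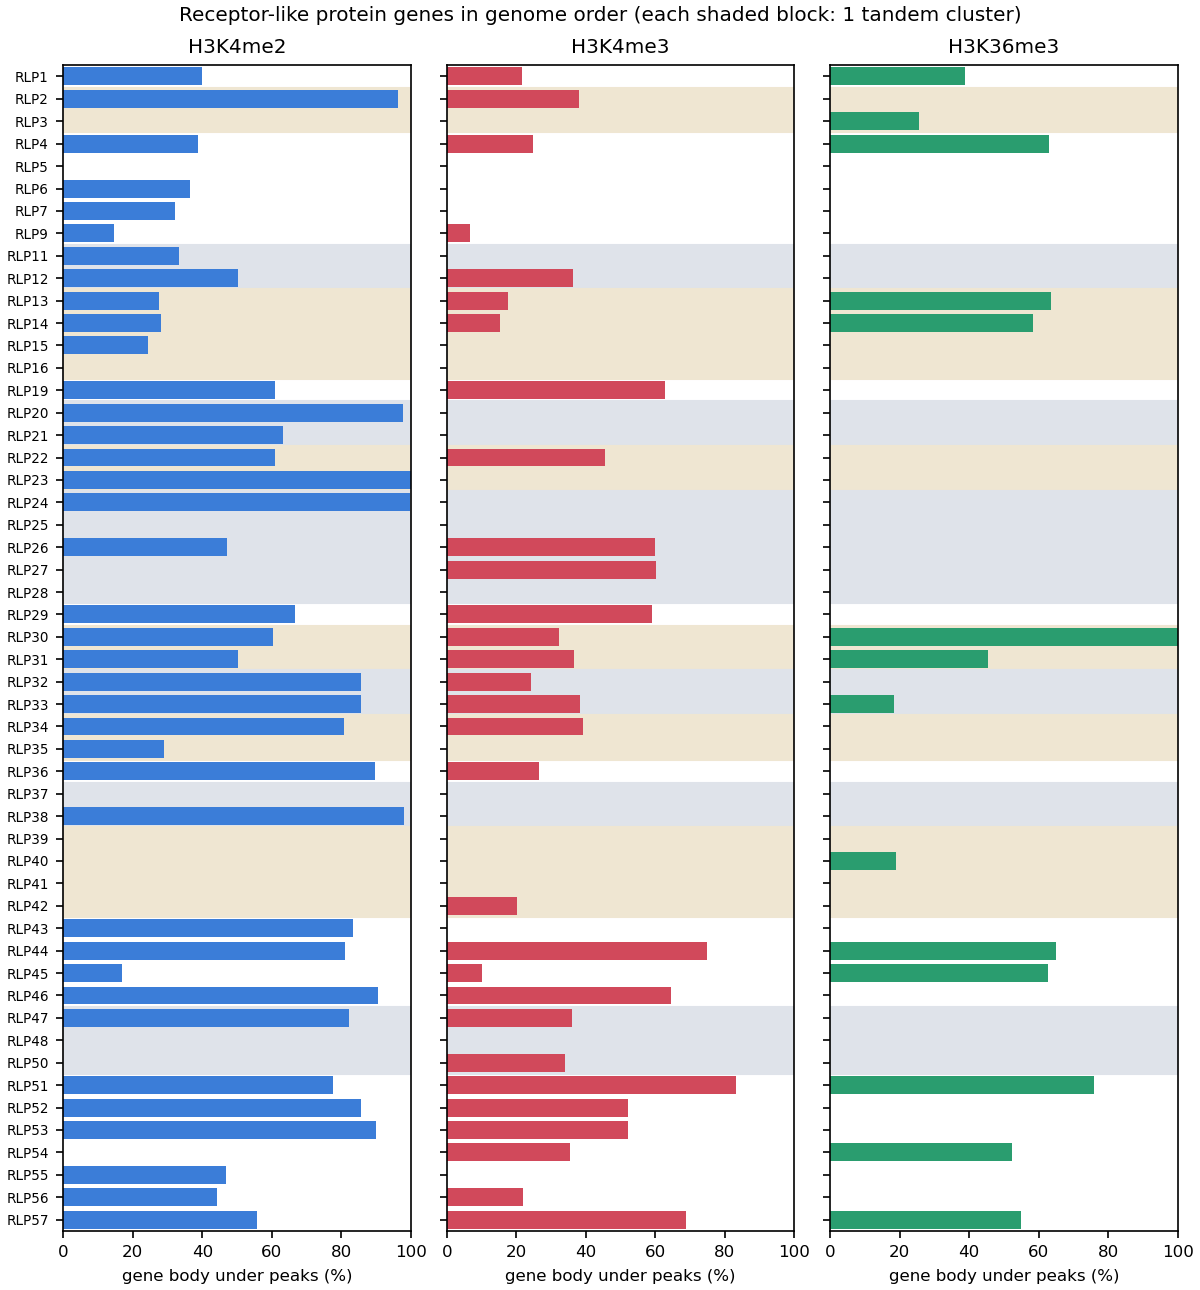
Percentage of each RLP gene's body under listed peaks of H3K4me2, H3K4me3 and H3K36me3, with genes in genome order and each tandem cluster shaded. H3K36me3 is absent from 38 rows, and several arrays change from marked to unmarked between adjacent genes.

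Receptors with known roles in immunity differed in their marks. RLP1, which is needed for the response to a proteinaceous preparation of Xanthomonas, carried all 3 marks, with H3K4me3 at a fold of 4.64 over pooled H3 (chromosome 1, 2269751 to 2270888) and H3K36me3 at 3.26, the lowest H3K36me3 fold among the RLP genes with their own summit. RLP32, which detects a bacterial translation initiation factor, carried H3K4me2 at a fold of 7.29 over 3308 bp (chromosome 3, 1645297 to 1648604) and H3K4me3 at 7.77 over 931 bp, and no H3K36me3. RLP32 thus held the longest H3K4me2 cover of the family. RLP52, in which mutants are more susceptible to powdery mildew, was alike, with H3K4me2 at 6.97 over 2155 bp (chromosome 5, 9038681 to 9041014) and H3K4me3 at 5.47 over 1314 bp.

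RLP23, the receptor for a conserved peptide of necrosis-inducing proteins of bacteria, fungi and oomycetes, lay under H3K4me2 from end to end, 2846 bp of 2846, and under neither trimethyl mark. That peak, on chromosome 2 from 13857931 to 13862796 at a fold of 5.38, also covered 1844 bp of the vesicle fusion gene VAMP725, and its summit was outside RLP23. RLP42, which senses fungal polygalacturonases, carried H3K4me3 alone, in a narrow peak of 631 bp on chromosome 3 from 9118910 to 9119540. Its fold of 3.24 stood at the 3.46th percentile of the H3K4me3 list, so it was among the weakest listed peaks. The 3 marks that covered RLP30, the receptor for an elicitor of Sclerotinia, all had their summits outside it and inside the span of AT3G05350, so they cannot be assigned to RLP30.

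RLP3, the Fusarium resistance gene RFO2, had no listed peak of either H3K4 mark on its body and 578 bp of H3K36me3. The marks sat beside it instead. In the interval between RLP2 and RLP3 on chromosome 1, an H3K4me2 peak with a fold of 4.09 spanned 5899936 to 5901014. An H3K4me3 peak there, at 5899909 to 5900578, had a fold of 8.38, and the H3K36me3 peak that reached into RLP3 spanned 5899945 to 5901746 with a fold of 3.91. The first of these ended 154 bp short of RLP3 and the H3K4me3 peak 590 bp short, and neither touched another protein-coding gene. RLP51, also called SNC2, whose gain-of-function allele gives constant defence, carried all 3 marks over most of its 1782 bp, with 1380 bp of H3K4me2, 1483 bp of H3K4me3 (chromosome 4, 10308025 to 10309507, fold 9.44) and 1352 bp of H3K36me3 (fold 5.35).

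RLP44, which links the state of cell wall pectin to brassinosteroid signalling, carried all 3 marks, with H3K4me2 at a fold of 7.48, H3K4me3 at 7.71 (chromosome 3, 18450553 to 18451480) and H3K36me3 at 3.46. Its H3K4me2 fold stood at the 96.8th percentile of its list and its H3K36me3 fold at the 5.33rd. A pair of related loci that carry other symbols and are not counted among the 52 were also marked. CLV2, listed in the gene table as RLP10 and part of the CLAVATA pathway of the shoot meristem, carried all 3 marks at folds of 3.53, 10.3 and 5.70 for H3K4me2, H3K4me3 and H3K36me3. TMM, listed as RLP17 and known for the spacing of stomata, carried H3K4me2 at 6.03 and H3K4me3 at 5.44 and no H3K36me3.

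The other RLP genes with H3K36me3 ranged from weak to strong in H3K4me3, around a list median of 8.84. RLP57 held the highest H3K4me3 fold of the family, 11.3 (chromosome 5, 26342265 to 26343356), with H3K36me3 at 5.53. RLP45 had H3K4me3 at 10.8 (chromosome 3, 19733762 to 19734319), RLP14 at 10.5 (chromosome 1, 27901162 to 27901922), RLP33 at 10.0 (chromosome 3, 1649046 to 1650314), and RLP13 at 8.86 (chromosome 1, 27895565 to 27896450). The peaks of RLP45 also cover AT3G53235, an 858 bp gene annotated inside it, and cannot be assigned to RLP45 alone. RLP4 had H3K4me3 at 8.72 (chromosome 1, 9940046 to 9940955) and the highest H3K36me3 fold, 6.23, over 2303 bp. The lower end was held by RLP31, with H3K4me3 at 6.77 (chromosome 3, 1537655 to 1538723) and H3K36me3 at 4.21, and by RLP54, with 7.06 (chromosome 5, 16066600 to 16067585) and 3.65. RLP54 was the one RLP gene with both trimethyl marks and no H3K4me2.

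In bases, H3K36me3 with its own summit was longest on 3 long genes. It covered 3424 bp of RLP45, 3139 bp of RLP13 and 2910 bp of RLP14, or 62.6%, 63.5% and 58.4% of their bodies. On RLP33 it covered 604 bp, or 18.3%. The median over the 14 genes was 56.6%, against 65.9% for all genes with the mark and 63.6% for those of like length.

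The level of H3K4me3 on the RLP genes was low, and it went with the absence of H3K36me3. Taking for each gene its highest peak with a summit inside, the 28 RLP genes had H3K4me3 folds from 2.87 (RLP50) to 11.3 (RLP57) with a median of 5.57, against a median of 8.96 for all genes and 9.05 for genes of like length. Folds are the authors' own and rank peaks only within 1 list. The 11 RLP genes that also carried H3K36me3 had H3K4me3 folds of 4.64 to 11.3 with a median of 8.86, and the 17 without it 2.87 to 8.59 with a median of 5.02. The ranges overlapped. Among all genes the medians were 9.47 with H3K36me3 and 4.77 without, so within each of these classes the RLP genes stood near other genes.

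H3K4me2 differed from this. Its highest fold per gene ran from 2.22 (RLP21) to 8.11 (RLP29) over 33 RLP genes, with a median of 3.11 against 3.49 for all genes. Among genes with H3K4me3 and no H3K36me3, the median H3K4me2 fold was 3.77 over 15 RLP genes and 5.03 over all genes, while with both trimethyl marks it was 3.26 over 10 RLP genes and 3.42 over all genes. The H3K36me3 folds of 11 RLP genes ran from 3.26 to 6.23 with a median of 4.56, against 5.71 for all genes, and 2 of them, RLP4 and RLP45, exceeded the list median of 5.68.

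**Figure D3:**
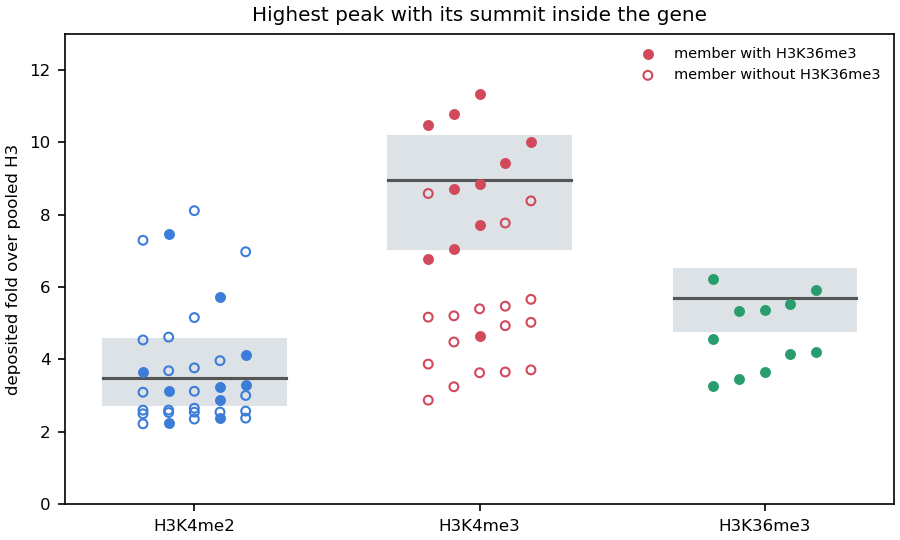
Deposited fold over pooled H3 of the highest peak with its summit inside each RLP gene, by mark, as points filled for genes that carry H3K36me3 and open for those that do not. Grey boxes give the quartiles and the line the median of all nuclear protein-coding genes with the mark. In the H3K4me3 column the open points lie between 2.87 and 8.59 and all below the line, and the filled points, apart from RLP1 at 4.64, lie at 6.77 or above.

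H3K4me2 ran along most of the body in many RLP genes. Among the 38 RLP genes with H3K4me2, 15 had it over at least 80% of the body (39.5%), against 12.3% of all genes with the mark and 6.29% of those of like length. By state, these were 5 of the 12 genes with H3K4me2 alone, 8 of the 15 with H3K4me2 and H3K4me3, and 2 of the 11 with all 3 marks. The 15 genes with H3K4me2 and H3K4me3 had a median H3K4me2 cover of 80.8% of the body, against 62.0% for all genes in that state and 52.8% for those of like length. RLP2 reached 96.4%, RLP46 90.6%, RLP53 89.9%, RLP36 89.8% and RLP32 85.7%. The peak of RLP2 also covers 373 bp of RTFL11, and that of RLP53 covers AT5G27065, a 374 bp gene annotated inside it. That of RLP47 covers 1371 bp of AT4G13820. Among the 15, RLP23, RLP24 and RLP38 lay under peaks with the summit outside the gene. Those of RLP23 and RLP24 also covered 1844 bp of VAMP725 and 2409 bp of AT2G33010. The part of such shared peaks in the breadth was not tested. RLP9, the longest RLP gene at 7536 bp, had 14.6%. At RLP36 the H3K4me2 peak, on chromosome 3 from 8174407 to 8176714, was 2308 bp wide and the H3K4me3 peak inside it 680 bp.

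In the RLP genes with both H3K4 marks, H3K4me3 lay mostly inside the H3K4me2 domain, as it did in other genes. A median of 99.5% of the bases under H3K4me3 in the 26 RLP genes with both marks were also under H3K4me2, against 93.6% in all such genes. Within states the medians were closer, at 100% for RLP genes and for all genes without H3K36me3, and 93.1% and 91.1% with it. RLP27, RLP42, RLP50 and RLP54 carried H3K4me3 and not H3K4me2. The reverse share was 56.7%, against 72.1% in all genes and 68.1% in those of like length. The H3K4me2 of RLP32 was covered by H3K4me3 over 27.5% of its bases, and that of RLP36 over 29.5%. RLP26, RLP51 and RLP57 were the opposite, with all of their H3K4me2 under H3K4me3.

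The H3K4me3 summit stood within 500 bp of a gene end in most of the 28 RLP genes that held it, but less often than in all genes. The gene table gives no strand, so positions were counted from the gene end nearer the summit. The fall of H3K4me3 away from that end is therefore set by the counting and is not a result. In RLP44, RLP57 and RLP51 the summit stood at 46.4%, 46.3% and 33.6% of the gene length, so the direction of these genes is uncertain. The summit was 94 bp (RLP56) to 1216 bp (RLP19) from that end, with a median of 364 bp over 28 RLP genes and 302 bp over all genes, and 60.7% lay within 500 bp against 83.0% of all genes. In the 14 RLP genes with the 2 H3K4 marks and their own H3K4me3 summit, H3K4me3 covered 88.4% of bases in the fifth twentieth of the gene and 20.0% in the thirteenth, while H3K4me2 fell from 90.6% to 65.7%. In the 10 with all 3 marks, H3K36me3 covered 100% of bases in the fifth twentieth and 57.0% in the thirteenth, and H3K4me2 fell from 90% to 40%. H3K4me2 reached further along the RLP genes that lacked H3K36me3 than along those that had it, and other genes showed the same. The median H3K4me2 cover was 80.8% of the body in RLP genes with the 2 H3K4 marks and 50.1% in those with all 3. Over all genes it was 62.0% and 44.0%, and over genes of like length 52.8% and 43.5%.

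**Figure D4:**
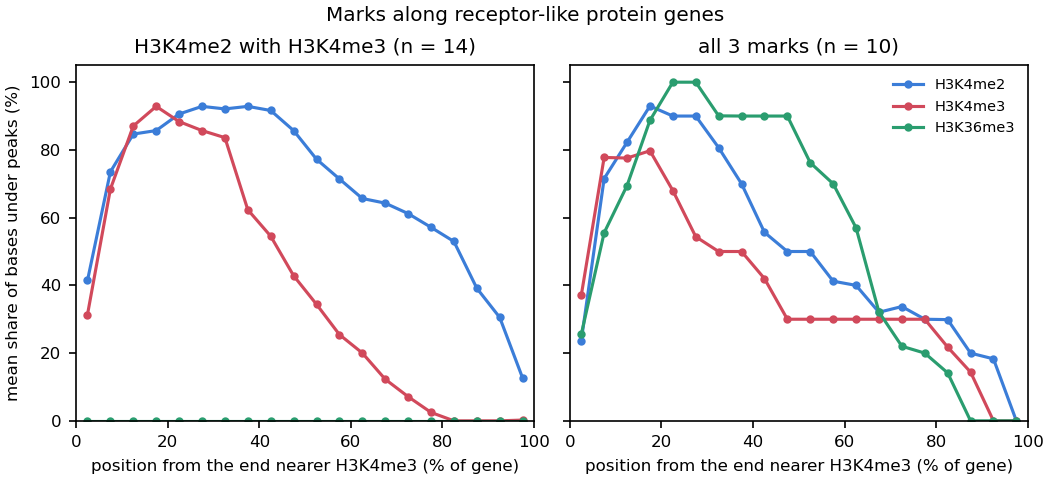
Mean percentage of bases under peaks along RLP genes, in twentieths counted from the gene end nearer the H3K4me3 summit, for genes with H3K4me2 and H3K4me3 (left) and with all 3 marks (right). On the left H3K4me2 covers 53.0% of bases in the seventeenth twentieth where H3K4me3 covers 0%, and on the right the corresponding values are 29.9% and 21.8%. The H3K4me3 summit sets the direction of each gene, so the fall of H3K4me3 is not a result.

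The other genes with H3K4me2 and H3K4me3 and no H3K36me3 were RLP12, RLP19, RLP22, RLP26, RLP29, RLP34, RLP47 and RLP56. RLP29 had the highest H3K4me2 fold of the family with its own summit, 8.11 (chromosome 2, 17808051 to 17809624), at the 98.1st percentile of that list, and its H3K4me3 fold of 5.66 stood at the 18.1st percentile of the H3K4me3 list. RLP34 and RLP56 had the strongest H3K4me3 of this state, at 8.38 (chromosome 3, 3452424 to 3453794) and 8.59 (chromosome 5, 19979530 to 19980559). RLP22 (3.65) and RLP36 (3.71) had the weakest. RLP19 had the longest H3K4me3 cover of the family, 2350 bp at a fold of 4.48, in a peak on chromosome 2 from 6533783 to 6536132. The H3K4me3 summit of RLP46 lay past its end, 1789 bp of the peak being inside the gene.

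The 12 RLP genes with H3K4me2 alone differed widely in how much of it they had. RLP20 (97.7% of the body), RLP23, RLP24 (99.9%), RLP38 (98.0%) and RLP43 (83.4%) were covered over most of their length, and RLP15, RLP35, RLP7, RLP11 and RLP6 over 24.3% to 36.5%. The highest fold touching one of them was 8.91 on RLP24, in a peak of 5691 bp on chromosome 2 from 14010822 to 14016512 that also covered all 2409 bp of AT2G33010 and had its summit outside RLP24. Next came RLP23 at 5.38, RLP15 at 3.87, RLP38 at 3.3, RLP55 at 3.12 and RLP43 at 3.00. The peaks of RLP15 and RLP38 had their summits outside these genes. RLP21, with 2352 bp under a fold of 2.22, and RLP20, with 2606 bp under 2.53, were broad and weak.

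The RLP genes without a listed peak were RLP5, RLP16, RLP25, RLP28, RLP37, RLP39, RLP41 and RLP48. RLP25 and RLP5 are the shortest members, at 657 and 801 bp, and the other 6 were 2436 bp or longer. A missing peak is not always an absent mark, because the peak numbers have gaps and called peaks were left out of the deposited lists. In the interval between flanking listed peaks, 1 or more peak numbers were missing for 12 of the 14 RLP genes without H3K4me2, 14 of the 22 without H3K4me3 and 31 of the 38 without H3K36me3. No share over other genes was set beside these counts. The interval can be wide: at RLP19 the flanking listed H3K36me3 peaks were 50914 and 75605 bp away. A missing number therefore need not concern the RLP gene. At RLP5 none had been left out for any mark, and the nearest listed peak of any mark was 3429 bp away. RLP37 lies wholly inside the annotated span of the DNA repair gene XRCC4, which carried all 3 marks, yet no listed peak reached RLP37.

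Tandem arrays held most of the family, and clustered RLP genes carried each mark less often than single ones. With neighbours joined across gaps of at most 20 kb, 32 RLP genes fell into 12 clusters and 20 stood singly. H3K4me2 was on 20 of the 32 clustered genes (62.5%) and 18 of the 20 single ones (90%), H3K4me3 on 15 (46.9%) and 15 (75%), and H3K36me3 on 7 (21.9%) and 7 (35%). Over all genes the shares were 74.8%, 62.5% and 49.8%, and over genes of like length 86.6%, 76.5% and 64.2%. For the H3K4 marks the single genes thus stood near genes of like length, and the clustered genes below them. No mark was found on 7 clustered genes (21.9%) and on 1 single gene, RLP5. The share without a mark was 21.7% over all genes and 10.4% over genes of like length. Median lengths were alike, at 2808 and 2852 bp. The part of shared reads in this difference was not tested.

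Neighbours within an array were mostly in different states. The members of 10 of the 12 clusters differed in marks, the exceptions being RLP20 and RLP21, with H3K4me2 alone, and RLP30 and RLP31, with all 3 marks. The marks on RLP30 cannot be assigned to it. Even the commonest state held only 28.8% of the 52 RLP genes. How often unrelated or other adjacent genes differ was not tested, so the count is not a trait of arrays. H3K4me3 was on some members but not all in 8 clusters, on every member in 2 and on none in 2. H3K36me3 was on none in 7 clusters. In the pair RLP11 and RLP12, 856 bp and 1408 bp were under H3K4me2, and H3K4me3 was on RLP12 alone (fold 5.21, chromosome 1, 26909839 to 26910855). RLP32 and RLP33, 100 bp apart, both had broad H3K4me2 and H3K4me3, and RLP33 alone had H3K36me3 (fold 4.15, chromosome 3, 1649236 to 1649839).

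The cluster of RLP13 to RLP16 on chromosome 1 changed state along its 17.9 kb, with no other protein-coding gene inside. RLP13 and RLP14 carried all 3 marks in nearly the same arrangement, with 872 and 761 bp of H3K4me3 at the gene end with the higher coordinate and 1361 and 1396 bp of H3K4me2. RLP15 had 870 bp of H3K4me2 and no other mark on its body, and RLP16 none. The H3K4me2 on RLP15 belonged to a peak from 27902049 to 27903459 that began in the gap after RLP14. The same gap held an H3K4me3 peak of 287 bp from 27902058 to 27902344, 245 bp short of RLP15, whose −log10 p of 38.5 was the lowest in the list.

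The cluster of RLP24 to RLP28 on chromosome 2 had 5 members in 20.6 kb and no H3K36me3 on any of them. RLP24 was covered by H3K4me2 and RLP26 carried H3K4me2 (fold 2.35) and H3K4me3 (fold 5.02, 14021840 to 14023441). RLP27 carried H3K4me3 alone (fold 3.63, 14025645 to 14027313), and RLP25 and RLP28 had no mark. Between RLP26 and RLP27 a narrow pair of peaks, H3K4me2 from 14024703 to 14025054 and H3K4me3 from 14024701 to 14025062, lay on no protein-coding gene. Other genes inside the array were marked: ATP3, for a subunit of the mitochondrial ATP synthase, carried all 3 marks, and NSP2 carried H3K4me2 and H3K4me3.

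The clusters of RLP39 to RLP42 and RLP47 to RLP50 each held unmarked members. Listed H3K4me2 reached no base of RLP39, RLP40, RLP41 or RLP42, on chromosome 3, and the only mark with a summit in a member was the weak H3K4me3 of RLP42. Peaks on no protein-coding gene stood between RLP39 and RLP40, with H3K4me3 at a fold of 10.3 from 9103106 to 9103662, above the list median of 8.84, and H3K36me3 at 4.24 from 9103128 to 9103643, below the list median of 5.68. On chromosome 4, RLP47 had H3K4me2 over 2504 bp and H3K4me3 over 1097 bp, RLP48 had neither, and RLP50 had H3K4me3 alone over 940 bp (8043864 to 8044803). The fold of that last peak, 2.87, stood at the 0.365th percentile of the H3K4me3 list. The nearest listed peaks of H3K4me2, H3K4me3 and H3K36me3 were 302, 245 and 261 bp from RLP48.

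**Figure D5:**
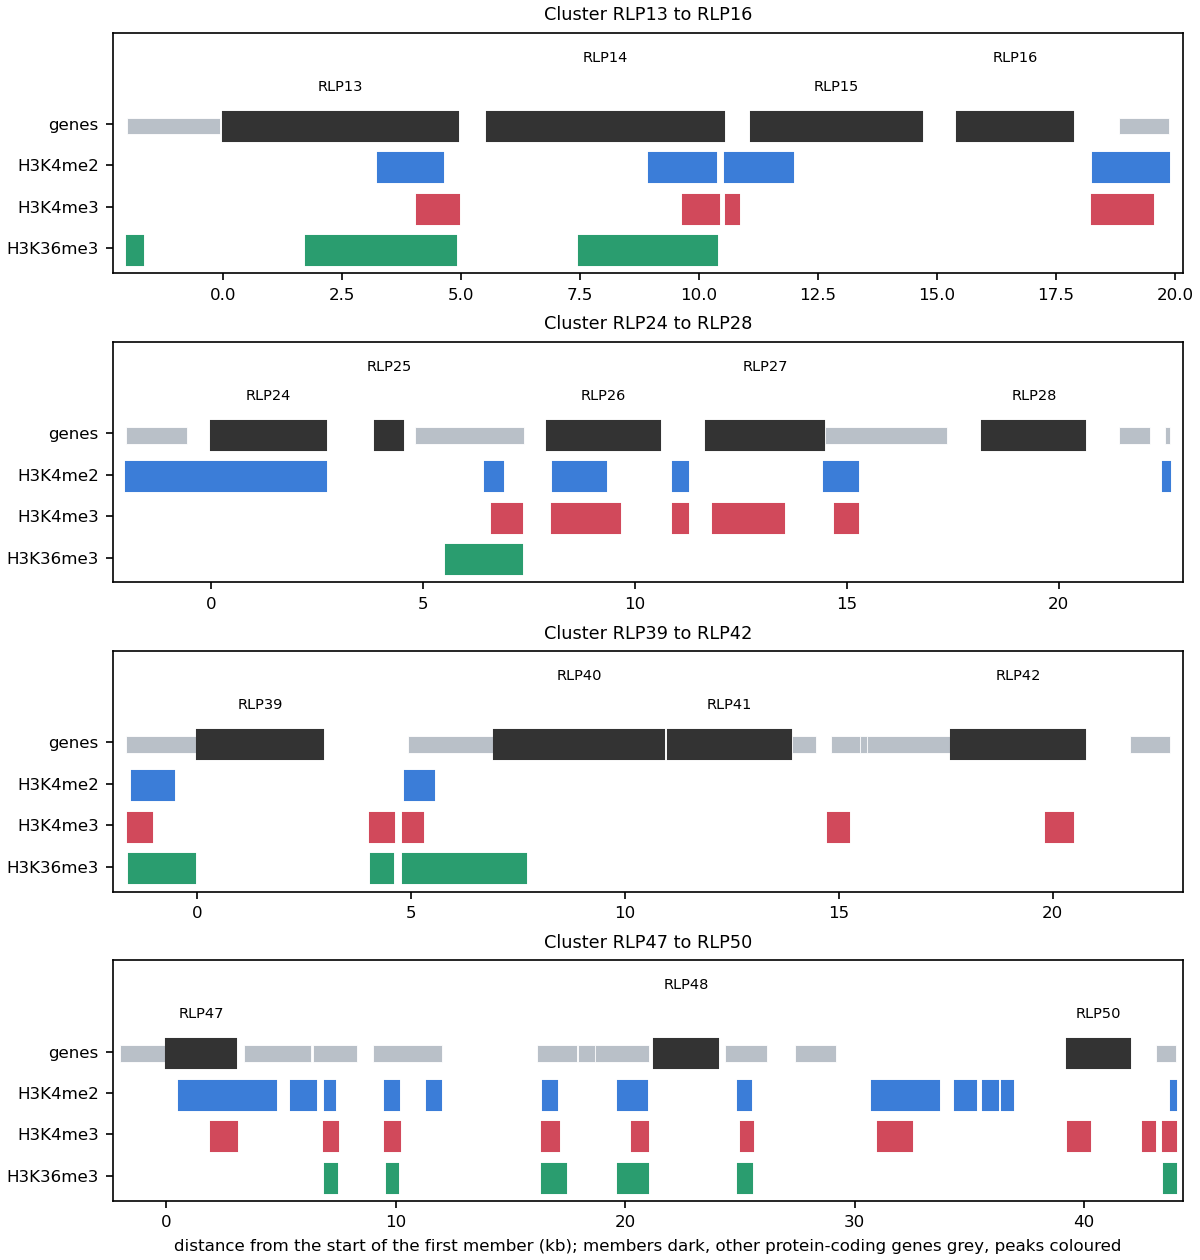
Protein-coding genes and peaks of the 3 marks in the 4 clusters with 3 or more RLP genes, against distance in kb from the start of the first RLP gene, with RLP genes dark and other genes grey. RLP13 and RLP14 carry all 3 marks while RLP16 has none, and no H3K4me2 lies on RLP39, RLP40, RLP41 or RLP42.

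The genes around the RLP genes carried H3K36me3 more often than the RLP genes did, at a share nearer to that of all genes. The 64 nearest other protein-coding genes were taken in gene order on either side of a cluster or single member. Some of them overlap an RLP gene: AT3G05350 and XRCC4 span RLP30 and RLP37, and AT3G53235 and AT5G27065 lie inside RLP45 and RLP53. The H3K36me3 peaks on RLP30 and RLP45 therefore count in both groups. H3K36me3 was on 36 of the 64 (56.2%), H3K4me3 on 43 (67.2%) and H3K4me2 on 51 (79.7%), and 9 had no mark. The shares over all genes were 49.8%, 62.5% and 74.8%, with no mark on 21.7%. The median length of the 64 genes was 2334 bp. RLP55, with H3K4me2 alone, stood between AT5G45760 and AT5G45775, which carried all 3 marks at gaps of 130 and 70 bp. RLP36, without H3K36me3, stood between the kinase gene CIPK7 and AT3G23020, both with all 3 marks, at gaps of 198 and 90 bp.

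The kinases and signalling proteins that act with RLPs were marked nearly throughout. Of 18 names in the list of co-receptors and partners, 15 were found in the gene table. All 15 carried H3K4me2 and H3K4me3, and 14 carried H3K36me3. The shares over all genes were 74.8%, 62.5% and 49.8% for H3K4me2, H3K4me3 and H3K36me3. Over the genes of like length to the RLP genes they were 86.6%, 76.5% and 64.2%. SOBIR1 had H3K4me3 at a fold of 11.1 and H3K36me3 at 6.62, BAK1 9.91 and 6.22, the receptor-like cytoplasmic kinase BIK1 10.5 and 7.11, and EDS1, a lipase-like hub of immunity, 8.82 and 3.53. The helper NLR genes ADR1, ADR1-L1 and ADR1-L2 had H3K4me3 at 7.00, 9.41 and 10.5. The exception for H3K36me3 was the co-receptor gene SERK1, with H3K4me2 at 5.56 and H3K4me3 at 5.69. The list's median gene length, 3352 bp, was above that of the RLP genes.

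The receptor kinases carried the H3K4 marks nearly throughout and H3K36me3 about as often as all genes. Of 22 matched receptor kinase genes of immunity and development, 21 carried H3K4me2, 20 H3K4me3 and 12 H3K36me3 (54.5%). The shares over all genes were 74.8%, 62.5% and 49.8%, and over the genes of like length to the RLP genes 86.6%, 76.5% and 64.2%, while the receptor kinases were longer, with a median of 3848 bp. Among those without H3K36me3 were FLS2, the flagellin receptor (H3K4me2 5.47, H3K4me3 5.70), EFR, the receptor for bacterial elongation factor Tu (3.43 and 5.95), and PEPR2, a receptor for plant danger peptides (7.50 and 5.67). BRI1, the brassinosteroid receptor, had H3K4me3 at 13.1 and H3K36me3 at 9.05, and BAM3, a receptor of the phloem lineage, had no mark.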

How the data were processed

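The 3 deposited lists of peaks were analysed, from native ChIP-seq of H3K4me2, H3K4me3 and H3K36me3. The submitters' processing notes name MACS2, R 3.3.2, SAMtools 1.3, Bowtie2 2.2.6, Trimmomatic 0.33 and Picard 2.2.4, and the build TAIR10, and roles, settings and the choice of listed peaks are not given in the sources used here. The peak names say that the authors pooled libraries of a mark and called peaks against pooled total H3. The deposited fold is the caller's ratio over H3, the deposited −log10 p values are the caller's, and the deposited score is a cut multiple of the −log10 p. Whether a fold is set against local H3 cannot be told, since unrelated peaks share 1 value. The lists keep 62.8%, 76.3% and 62.8% of the peak numbers for H3K4me2, H3K4me3 and H3K36me3.

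Peaks were set on the gene bodies of the RefSeq table for TAIR10.1 with Python 3.11.15 and pandas 2.3.3. Printed coordinates are those of peaks, counted from 1. Of offsets up to 1000 bp in steps of 100 bp, the share of peak bases in genes was highest at 0 for each mark. The interval arithmetic was tested on 20 simulated sets. Named genes were those with a trimethyl mark or a known role, the strongest and broadest of those with H3K4me2 alone, and all without a mark. The members and lists were chosen with earlier results of these data known. The partner names BIR3, PBL30 and PBL31, and the receptor kinase name MIK2 were not matched. No sequence was used, and no test was made, since each mark has 1 pooled list. Other cover rules, peak thresholds and gaps were tried.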

Additional observations from a re-analysis of the deposited data

How the results depend on the processing

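Of 60 values recomputed under other settings, 40 stayed within 1.5 times the reported count or, for the shares of genes of like length, within the 95% binomial interval. With 1 bp or 500 bp covered, 39 or 38 RLP genes carried H3K4me2, and 30 H3K4me3 and 14 H3K36me3 under both. With 50% of the gene body covered, 24 carried H3K4me2, 10 H3K4me3, 9 H3K36me3, 3 all 3 marks and 21 none. With the strongest 50% of each list, 17 carried H3K4me2 (32.7% against 40.6% of all genes), 6 H3K4me3, 4 H3K36me3, 0 all 3 marks and 30 none. With equal numbers of peaks, 20 carried H3K4me2 (38.5% against 46.9% of all genes), 14 H3K4me3 (26.9% against 49.5%), 5 all 3 marks and 22 none. Genes with no mark numbered 15 when a summit had to lie inside the gene and 14 with peaks on 1 gene only. H3K36me3 stayed below all genes in each setting, for instance at 17.3% against 42.4% with 50% of the body, and H3K4me3 stayed level there, at 19.2% against 19.0%, but fell to 11.5% against 33.2% with the strongest 50% of peaks. With no other coding gene allowed between neighbours, 18 RLP genes were in clusters. Genes of like length between the 25th and 75th percentiles carried the marks at 88.0%, 79.1% and 66.6%. Chosen after seeing the data, leaving out 7 RLP genes that overlap another gene by 200 bp or more left 11 of 45 with H3K36me3. An alternative without near-identical copies was not run for lack of protein sequences. No paired analysis was possible because each mark has 1 pooled list and the libraries carry no replicate numbers. Peaks without a stated depth give no counting error.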

Other observations

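A pair of annotated RLP pseudogenes, outside the 52 coding genes, differed in marks. RLP49, in the array of RLP47 to RLP50 on chromosome 4, had 4654 bp of its 5766 bp under H3K4me2, in 4 peaks at folds of 2.18 to 4.55, and 1485 bp under H3K4me3 at a fold of 5.35 (8035586 to 8037070). Its H3K4me3 fold was above those of RLP47 (4.93) and RLP50 (2.87), the coding members of the array with that mark. RLP48, the other coding member, had no mark. RLP18, on chromosome 2, had no listed peak of any mark.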
